A study of Mus musculus with 12 samples.

Results

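The NRF2 antioxidant genes described here are 10 genes: the transcription factor gene Nfe2l2 (which encodes NRF2), its regulators Keap1 and Sqstm1, and the enzyme and transporter genes Slc7a11, Gclc, Gclm, Txnrd1, Srxn1, Hmox1 and Nqo1. They were chosen by name, by matching the gene name of each array probe to these symbols or their synonyms, and all 10 were found among the 31693 gene names on the array. That choice was made with earlier results of these data known. All 10 also passed the filter on dim probes. Their RNA was measured in cultured macrophages of 2 wildtype and 2 Commd1 knockout mice. Marrow had been grown with GM-CSF, a myeloid growth factor, at 20 ng/ml for 10 days, which all groups share. The cells of each mouse were then divided into 3 samples, 1 left untreated and the others given lipopolysaccharide (LPS, a component of bacterial cell walls) at 10 ng/mL for 3 h or for 24 h. This gave 6 groups of 2 samples, wildtype or knockout, each untreated, at 3 h or at 24 h, and 12 single-colour arrays. Replicates 1 and 2 of wildtype are mouse 1 and mouse 2, and those of knockout are mouse 3 and mouse 4. The labels give neither age, sex nor strain, nor whether the knockout is in all cells, and untreated cells were not sampled at 3 h or 24 h.

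NRF2 is a transcription factor that the adaptor protein KEAP1 holds in the cytoplasm and hands to a ubiquitin ligase for degradation. Oxidants and electrophiles modify KEAP1, so that NRF2 escapes, pairs with small MAF proteins and binds antioxidant response elements in the DNA near its target genes. In macrophages the pathway is known for limiting oxidative damage after activation, and several of its targets are also controlled by other factors, such as BACH1, NF-kB and ATF4. Because NRF2 is regulated mainly at the level of the protein, the RNA of Nfe2l2 does not report its activity.

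Promoter sequences are shown for 4 of the 5 members in which a script found letters of a known regulatory element. RefSeq windows of build GRCm38.p6 reach from 250 bases before to 50 bases after a gene's start, and 10 windows were found for 8 of the 10 members. Hmox1 and Gclc had no window. The core letters of the antioxidant response element, TGACNNNGC, were searched on both strands and were held by 12.4% of all 32851 windows. Of the members' 10 windows 4 held them: that of Nfe2l2 240 bases before the start (outside the stretches shown), that of Gclm 134 before, 1 of Txnrd1 92 before and that of Srxn1 28 after. A pair of further motifs, chosen after these sequences had been seen, were TGANTCAGC, a form shared by AP-1 and NRF2 sites, and TGATGCAAA, an amino acid response element bound by ATF4. TGANTCAGC was in 1.19% of all windows and, of the members, in Srxn1, 45 bases before the start. TGATGCAAA was in 0.271% of all windows and, of the members, in Slc7a11, where it stands 66 bases before the start and again, on the other strand, 48 before. A match describes letters only and does not show that a factor binds there. The 150 bases before the start are given 5′ to 3′ on the gene's strand, with the matches in capitals. They lie at chr3:50443614-50443763 for Slc7a11 (minus strand), chr2:152105374-152105523 for Srxn1 (plus), chr3:122245407-122245556 for Gclm (plus) and chr10:82859056-82859205 for Txnrd1 (plus).
Slc7a11: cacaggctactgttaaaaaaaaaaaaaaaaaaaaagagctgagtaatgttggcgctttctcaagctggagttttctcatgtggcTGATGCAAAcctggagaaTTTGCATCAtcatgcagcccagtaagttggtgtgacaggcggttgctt
Srxn1: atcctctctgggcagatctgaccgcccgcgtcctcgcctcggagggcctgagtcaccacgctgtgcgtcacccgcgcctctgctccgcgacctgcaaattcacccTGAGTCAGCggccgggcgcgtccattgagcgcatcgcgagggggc
Gclm: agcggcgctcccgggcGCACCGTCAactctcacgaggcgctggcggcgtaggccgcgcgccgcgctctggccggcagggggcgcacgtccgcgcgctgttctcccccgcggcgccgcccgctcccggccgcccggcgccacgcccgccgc
Txnrd1: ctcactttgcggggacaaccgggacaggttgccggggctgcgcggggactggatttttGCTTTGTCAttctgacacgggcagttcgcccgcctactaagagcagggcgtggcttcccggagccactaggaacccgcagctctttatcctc

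Levels are log2 values of the array's processed signal relative to that array's 75th percentile, so a difference of 1 is a doubling. They compare samples for 1 probe and do not rank genes against each other. Commd1, the targeted gene, was lower in knockout cells by -3.01 in untreated cells, -2.92 at 3 h and -3.05 at 24 h, with adjusted p between 0.00166 and 0.0231. Its signal remained well above background on the knockout arrays, and where its probe lies relative to the deletion is not known. Of 12 macrophage markers 11 were detected in every group, the exception being Cd163. Of 6 T and NK cell markers Cd3e was detected in every group, Ncr1 in the wildtype groups, Klrb1c in untreated wildtype cells, and Cd3d, Cd3g and Cd8a in none, with a summed linear level of 0.537 to 0.756 over all arrays. Of 9 neutrophil markers on the array 8 or 9 were detected, and their summed linear level was 14.9 to 16.0 in knockout against 20.7 to 21.5 in wildtype cells at 3 h. Of 10 dendritic cell markers 6 to 8 were detected, and their sum at 24 h was 13.9 to 14.5 in knockout and 8.46 to 9.13 in wildtype cells. Of 5 B cell markers 3 to 5 were detected, and their sum in untreated cells was 1.61 to 1.67 in knockout and 0.757 to 0.826 in wildtype. Of 4 megakaryocyte markers only Pf4 was detected, with sums of 79.6 to 84.3 at 3 h and 41.1 to 53.1 at 24 h. All 5 stroma markers were detected in every group but knockout at 24 h, which lacked Pdgfrb (sums of 1.80 to 3.81), and of 6 mast cell, basophil and eosinophil markers only Mcpt8 was, in untreated wildtype cells (sums up to 0.0103). The part of these shifts in the results below was not tested, and in bulk RNA fewer cells of a type and less RNA per cell cannot be told apart. Each LPS time was hybridised on its own slide, so LPS time and slide cannot be told apart, nor can genotype and the array's position on the slide. The response of log2 signal to spike-in amount (its slope) was also flatter on wildtype arrays (0.735 to 0.743 untreated and at 3 h) than on knockout arrays (0.794 to 0.799). At 24 h the slopes were 0.820 to 0.824 on wildtype and 0.842 to 0.869 on knockout arrays. The slope was thus also steeper at 24 h than at the other times in both genotypes.

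**Figure D1:**
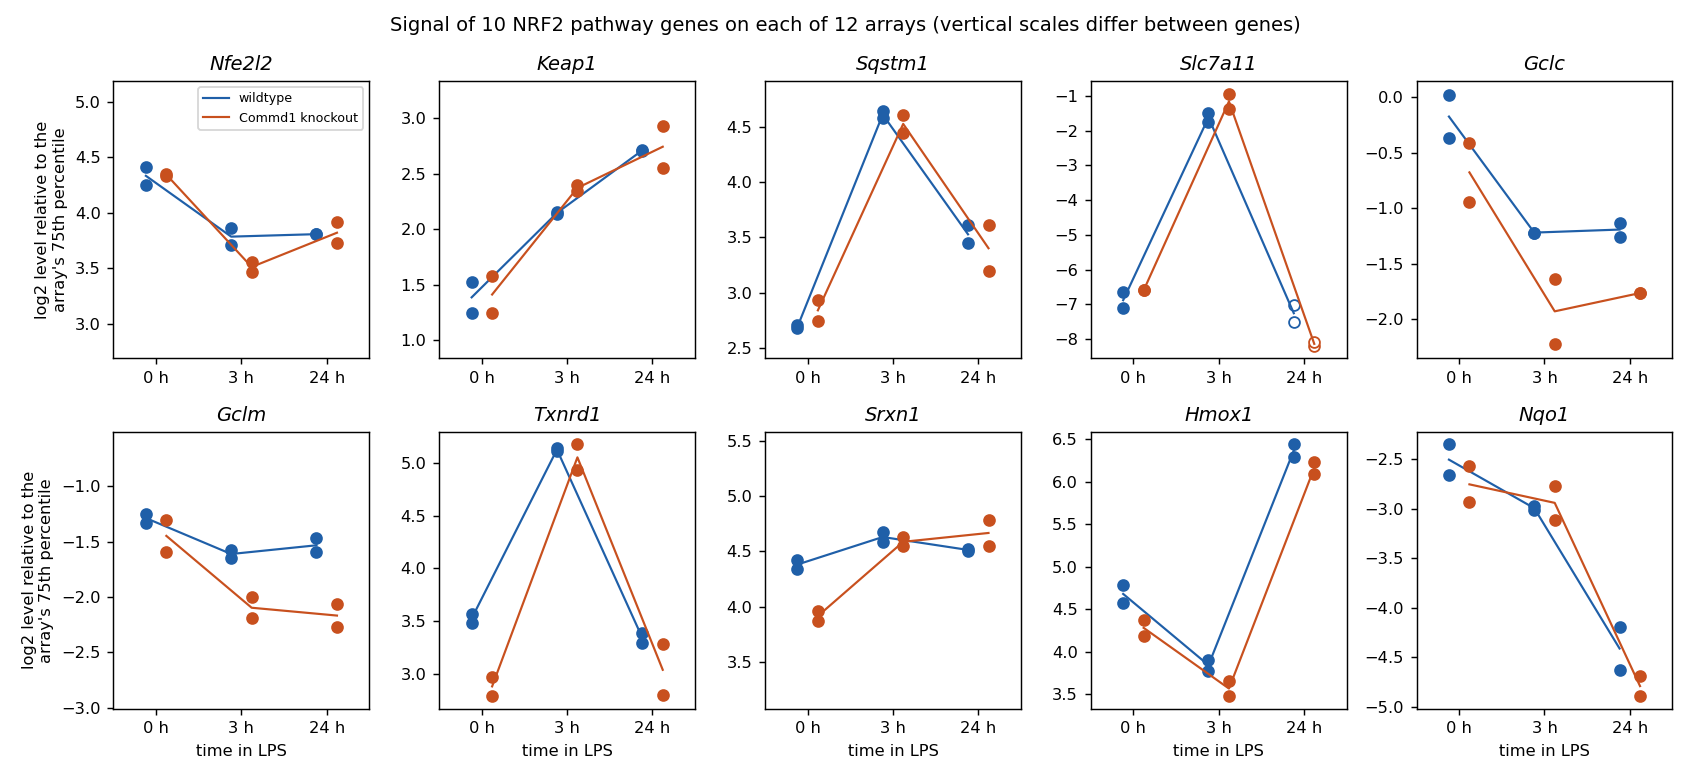
Log2 level relative to the array's 75th percentile (vertical axis) against time in LPS (0 h is untreated) for each of the 10 genes, with 1 point per array, wildtype in blue, Commd1 knockout in orange and lines through the group means; open points mark groups not well above background. Slc7a11, Txnrd1 and Sqstm1 peak at 3 h, Hmox1 is lowest at 3 h and highest at 24 h, and Nqo1 is lowest at 24 h.

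The first question was how the members changed with LPS in wildtype cells. After 3 h, 4 of the 10 rose (Slc7a11, Sqstm1, Txnrd1 and Keap1), 3 fell (Gclc, Hmox1 and Nfe2l2) and 3 did not pass, where 46.5% of all genes tested were called (23.2% higher and 23.3% lower). The members' median log2 difference was -0.04, and that of all genes 0.03. After 24 h, 3 were higher than untreated (Hmox1, Keap1 and Sqstm1) and 3 lower (Nqo1, Gclc and Nfe2l2), against 49.9% of all genes called (23.6% higher and 26.4% lower), with medians of -0.21 and -0.04. With about 1 gene in 2 called at either time, these shares are near the background, and the members' results lie in their directions and sizes. In knockout cells 5 rose and 4 fell after 3 h, against 52.1% of all genes (26.4% higher and 25.7% lower). At 24 h 4 were higher and 5 lower, against 57.5% (26% higher and 31.5% lower), 1 of the lower being Slc7a11 with signals not well above background.

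The regulators moved in opposite directions. For Nfe2l2 (probe A_51_P411271, mm9 chromosome 2, 75513771 to 75513830) untreated levels were 4.25 and 4.41 in wildtype, against 4.35 and 4.33 in knockout cells. After 3 h they were 3.86 and 3.71 in wildtype, against 3.56 and 3.46 in knockout, and after 24 h 3.80 and 3.81 in wildtype, against 3.72 and 3.92 in knockout. All 8 LPS samples lay below all 4 untreated ones. In wildtype cells Nfe2l2 fell by 0.55 ± 0.10 at 3 h (SE, n = 2 per group; limma, adjusted p = 0.00249) and by 0.53 ± 0.10 at 24 h (adjusted p = 0.00297), and in knockout cells by 0.83 and 0.52 (adjusted p = 0.000175 and 0.00249).

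Keap1, which encodes the adaptor that marks NRF2 for degradation, rose (probe A_51_P438666, mm9 chromosome 9, between 21035292 and 21035732). Untreated levels of Keap1 were 1.24 and 1.53 in wildtype, against 1.24 and 1.58 in knockout cells, and all other arrays were higher. At 3 h Keap1 stood at 2.14 and 2.15 in wildtype, against 2.40 and 2.34 in knockout cells, and at 24 h at 2.70 and 2.72 in wildtype, against 2.93 and 2.56 in knockout. The wildtype rise of Keap1 was 0.76 ± 0.16 at 3 h (limma, adjusted p = 0.00457) and 1.33 ± 0.16 at 24 h (adjusted p = 0.000227), or 2.51-fold at 24 h. In knockout cells Keap1 rose by 0.96 and 1.33 (adjusted p = 0.00103 and 0.000154).

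Sqstm1 encodes p62, an autophagy receptor that binds KEAP1 and is itself an NRF2 target (probe A_55_P2069714, mm9 chromosome 11, 50015985 to 50016044). Its levels were 2.68 and 2.71 in untreated wildtype, 2.75 and 2.94 in untreated knockout, 4.57 and 4.64 in wildtype at 3 h and 4.44 and 4.60 in knockout at 3 h. At 24 h Sqstm1 was at 3.45 and 3.61 in wildtype, against 3.61 and 3.19 in knockout cells, between the untreated and the 3 h arrays. Sqstm1 rose by 1.92 ± 0.14 at 3 h in wildtype cells, which is 3.77-fold (limma, adjusted p = 1.34e-05), and by 1.68 ± 0.14 in knockout cells. It was still higher than untreated at 24 h, by 0.84 ± 0.14 in wildtype (adjusted p = 0.00162) and by 0.56 ± 0.14 in knockout cells (adjusted p = 0.01). The 24 h difference of Sqstm1 in knockout cells was 0.47 without the untreated sample of mouse 3 (adjusted p = 0.0671), and it missed the threshold under 4 other settings.

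The genes of glutathione supply split in direction. Slc7a11, the exchanger subunit that imports cystine for glutathione synthesis, had the largest change of the members (probe A_52_P368057, mm9 chromosome 3, 50169700 to 50169759). Its level was -7.10 and -6.65 in untreated wildtype cells and -6.60 and -6.59 in untreated knockout cells. After 3 h it was -1.51 and -1.74 in wildtype, against -0.94 and -1.38 in knockout cells, all above every untreated sample. At 24 h Slc7a11 was not well above background on any of the 4 arrays, whose processed values were -7.50 and -7.00 in wildtype, against -8.18 and -8.08 in knockout. The 3 h rise was 5.25 ± 0.22 in wildtype, or 38.1-fold (limma, adjusted p = 4.98e-07), and 5.43 ± 0.22 in knockout, or 43.2-fold (adjusted p = 3.16e-07). The untreated signals are dim, and with normexp background correction, which raises dim values, the Slc7a11 rises were 3.34 and 3.55. From 3 h to 24 h the processed values of Slc7a11 fell in wildtype and knockout cells (limma, adjusted p = 6.11e-07 and 1.73e-07). With the lowest detected signal of each 24 h array in place of the dim one, the falls were 37.1-fold and 34.0-fold. These are not lower limits. With normexp the Slc7a11 differences were -2.98 and -3.27, or 7.88-fold and 9.64-fold, and still passed. Against untreated knockout cells the dim 24 h values passed the test (adjusted p = 0.000429), but no fold is given, and with normexp that Slc7a11 difference was 0.28 (adjusted p = 0.114).

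Gclc and Gclm encode the catalytic and the modifier subunit of glutamate-cysteine ligase, the rate-limiting enzyme of glutathione synthesis, and neither followed Slc7a11. Gclc (probe A_51_P365019, mm9 chromosome 9, 77641296 to 77641355) had untreated levels of -0.37 and 0.02 in wildtype, against -0.94 and -0.41 in knockout cells. The 3 h levels of Gclc were -1.22 and -1.22 in wildtype, against -2.22 and -1.63 in knockout, and the 24 h levels -1.25 and -1.13 in wildtype, against -1.76 and -1.77 in knockout. Within each genotype, every LPS sample of Gclc lay below both untreated samples. In wildtype cells Gclc fell by 1.05 ± 0.23 at 3 h and by 1.02 ± 0.23 at 24 h (limma, adjusted p = 0.00588 and 0.00632), and in knockout cells by 1.25 and 1.09 (adjusted p = 0.00186 and 0.0038).

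For Gclm (probe A_51_P320089, mm9 chromosome 3, between 121962174 and 121964809) untreated levels were -1.33 and -1.25 in wildtype, against -1.59 and -1.30 in knockout cells. At 3 h Gclm stood at -1.58 and -1.64 in wildtype, against -2.19 and -2.00 in knockout, and at 24 h at -1.60 and -1.47 in wildtype, against -2.27 and -2.07 in knockout. In knockout cells Gclm fell by 0.65 ± 0.13 at 3 h and by 0.72 ± 0.13 at 24 h (limma, adjusted p = 0.00266 and 0.00144). In wildtype cells the Gclm differences were -0.32 ± 0.13 (adjusted p = 0.0669) and -0.25 ± 0.13 (adjusted p = 0.143). With the mouse as a block, the 3 h value of Gclm in wildtype passed (adjusted p = 0.0223).

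In the thioredoxin branch, Txnrd1 encodes the cytosolic reductase that keeps thioredoxin reduced (probe A_51_P320614, mm9 chromosome 10, 82360230 to 82360289). Its levels were 3.48 and 3.57 in untreated wildtype and 2.79 and 2.98 in untreated knockout cells. At 3 h they were 5.14 and 5.11 in wildtype, against 5.17 and 4.93 in knockout, above every other array. At 24 h Txnrd1 was at 3.30 and 3.39 in wildtype, against 2.80 and 3.28 in knockout cells, near the untreated range. The rise at 3 h was 1.60 ± 0.16 in wildtype, or 3.03-fold (limma, adjusted p = 6.98e-05), and 2.17 ± 0.16 in knockout, or 4.49-fold (adjusted p = 8.12e-06). At 24 h the differences of Txnrd1 from untreated were -0.18 ± 0.16 and 0.16 ± 0.16 (adjusted p = 0.381 and 0.43). After correction for the spike-in slope the wildtype value of Txnrd1 was -0.56 (adjusted p = 0.0217), and without mouse 3 at 24 h the knockout value was 0.40 (adjusted p = 0.0406).

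Srxn1 encodes sulfiredoxin, which repairs over-oxidised peroxiredoxins (probe A_55_P2033120, mm9 chromosome 2, 151937009 to 151937068). Untreated levels of Srxn1 were 4.42 and 4.34 in wildtype, against 3.87 and 3.96 in knockout cells, and these 2 knockout samples were the lowest of the 12. All LPS samples lay between 4.50 and 4.79, namely 4.68 and 4.58 in wildtype, against 4.63 and 4.55 in knockout at 3 h, and 4.50 and 4.52 in wildtype, against 4.55 and 4.79 in knockout at 24 h. In knockout cells Srxn1 rose by 0.67 ± 0.10 at 3 h and by 0.75 ± 0.10 at 24 h (limma, adjusted p = 0.00057 and 0.000294). In wildtype cells its differences were 0.25 ± 0.10 and 0.13 ± 0.10 (adjusted p = 0.0733 and 0.309), and the 24 h value was -0.35 after correction for the spike-in slope (adjusted p = 0.0358).

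Hmox1, the inducible heme oxygenase, which breaks down heme into biliverdin, iron and carbon monoxide, fell and then rose. Its brighter probe (A_51_P263965, mm9 chromosome 8, 77624207 to 77624266) gave 4.57 and 4.78 in untreated wildtype and 4.19 and 4.37 in untreated knockout cells. At 3 h Hmox1 was at 3.78 and 3.91 in wildtype, against 3.48 and 3.65 in knockout cells, below all untreated arrays. At 24 h it reached 6.29 and 6.44 in wildtype, against 6.09 and 6.23 in knockout cells, above all others. Hmox1 fell by 0.84 ± 0.12 at 3 h in wildtype cells (limma, adjusted p = 0.000622) and was 1.69 ± 0.12 above untreated at 24 h, or 3.22-fold (adjusted p = 1.37e-05). Knockout cells gave a fall by 0.71 and then a difference of 1.88 (adjusted p = 0.00123 and 4.99e-06). The second probe of Hmox1 (A_55_P2029687) moved the same way, with -1.03 and 1.70 in wildtype, against -0.72 and 1.45 in knockout cells, and each of these passed.

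Nqo1, a quinone reductase and a much used marker of NRF2 activity, went the other way (probe A_51_P424338, mm9 chromosome 8, 109912440 to 109912499). Untreated levels of Nqo1 were -2.66 and -2.35 in wildtype, against -2.94 and -2.57 in knockout cells, and 3 h levels were -3.02 and -2.97 in wildtype, against -3.11 and -2.77 in knockout. At 24 h Nqo1 stood at -4.63 and -4.19 in wildtype, against -4.89 and -4.69 in knockout cells, below all other arrays. At 24 h Nqo1 was lower than untreated by -1.91 ± 0.20 in wildtype, or 3.75-fold (limma, adjusted p = 0.000109), and by -2.04 ± 0.20 in knockout, or 4.11-fold (adjusted p = 5.08e-05). At 3 h the Nqo1 differences were -0.49 ± 0.20 in wildtype (adjusted p = 0.0765, and 0.0128 with the mouse as a block) and -0.19 ± 0.20 in knockout cells (adjusted p = 0.463). With normexp correction the 24 h values of Nqo1 were -1.25 and -1.14.

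**Figure D2:**
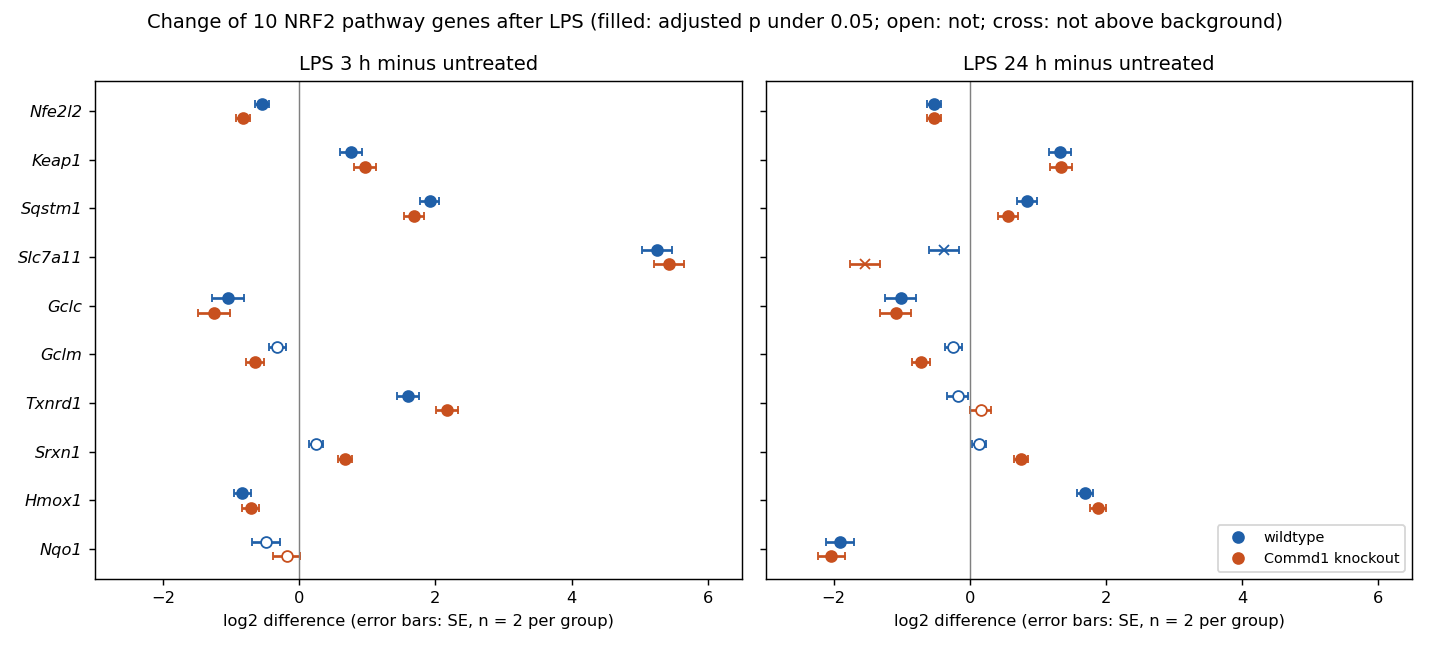
Log2 difference from untreated cells (horizontal axis, with SE, n = 2 per group) at 3 h (left) and 24 h (right) of LPS for the 10 genes, wildtype in blue and Commd1 knockout in orange; filled points have an adjusted p under 0.05 and crosses rest on 24 h signals not well above background. Slc7a11 stands at 5.25 and 5.43 at 3 h, while at 24 h Hmox1 is the highest and Nqo1 is at -1.91 and -2.04.

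Slc7a11, Txnrd1 and Sqstm1, which had risen at 3 h, fell again by 24 h. In wildtype cells 2 of the 10 rose over this interval (Hmox1 and Keap1) and 4 fell (Slc7a11, Txnrd1, Nqo1 and Sqstm1), against 52.6% of all genes called (25.7% higher and 26.9% lower). Hmox1 rose by 2.53 ± 0.12, or 5.76-fold (limma, adjusted p = 1.58e-06), while Txnrd1 fell by 1.78 ± 0.16, Nqo1 by 1.42 ± 0.20 and Sqstm1 by 1.08 ± 0.14. The second rise of Keap1, 0.56 ± 0.16 (adjusted p = 0.0169), missed the threshold when any 1 of its 4 samples was left out (adjusted p between 0.0634 and 0.0706). Knockout cells again gave 2 higher (Hmox1 and Nfe2l2) and 4 lower, against 58.9% of all genes (26.3% higher and 32.6% lower), with Hmox1 at 2.60 ± 0.12, Txnrd1 at -2.01, Nqo1 at -1.85 and Sqstm1 at -1.12. The rise of Nfe2l2 in knockout cells, 0.31 ± 0.10 (adjusted p = 0.0294), was lost with the mouse as a block (adjusted p = 0.0526), and without mouse 4 at 3 h or at 24 h (adjusted p = 0.118 and 0.137). Keap1 in knockout cells was 0.37 ± 0.16 (adjusted p = 0.0747), and 0.56 without mouse 4 at 24 h (adjusted p = 0.0236). The comparisons with untreated cells and between LPS times share samples, so they are not independent of each other.

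The second question was whether loss of Commd1 altered these genes. In untreated cells 1 of the 10 differed, Srxn1, which was lower in knockout cells by -0.46 ± 0.10, or 1.38-fold (limma, adjusted p = 0.0358), where 6.74% of all genes were called (3.73% higher and 3.01% lower). The untreated groups did not overlap for 6 of the 10 members, close to the 58.8% of all genes for which they did not. Of these, Srxn1, Txnrd1, Hmox1 and Gclc were lower and Sqstm1 and Slc7a11 higher in knockout cells. Txnrd1 missed the threshold narrowly at -0.64 ± 0.16 (adjusted p = 0.0515), and passed under 7 of the alternative settings. Hmox1 was at -0.40 ± 0.12 (adjusted p = 0.0896) and Gclc at -0.50 ± 0.23 (adjusted p = 0.219). Without any 1 of the 4 untreated samples Srxn1 no longer passed (adjusted p between 0.0693 and 0.227).

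After 3 h of LPS no member passed in limma, where 1.66% of all genes were called (1.06% higher and 0.6% lower), and 3 of the 10 had an unadjusted p under 0.05, against 24.3% of all genes. These were Gclm at -0.48 ± 0.13 (adjusted p = 0.0778), Gclc at -0.71 ± 0.23 (adjusted p = 0.119) and Nfe2l2 at -0.27 ± 0.10 (adjusted p = 0.155). Without mouse 4 at 3 h, Gclc was at -1.01 and Gclm at -0.58. After 24 h 1 of the 10 differed, Gclm, which was lower in knockout cells by -0.63 ± 0.13, or 1.55-fold (adjusted p = 0.0461), where 2.39% of all genes were called (0.722% higher and 1.67% lower). Gclm no longer passed without the 24 h sample of wildtype mouse 1, wildtype mouse 2 or knockout mouse 3 (adjusted p = 0.173, 0.214 and 0.097). Gclc was at -0.57 ± 0.23 (adjusted p = 0.201), Nqo1 at -0.38 ± 0.20 (adjusted p = 0.31) and Srxn1 at 0.15 ± 0.10 (adjusted p = 0.41). For Hmox1 the probes differed in size, with -0.21 ± 0.12 for the brighter and -0.71 ± 0.19 for the second. Neither Hmox1 probe passed in a limma fit of single probes (adjusted p = 0.362 and 0.0891). With each genotype on its own array positions and the spike-in slope lower on wildtype arrays at each time, these differences cannot be told apart from position.

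**Figure D3:**
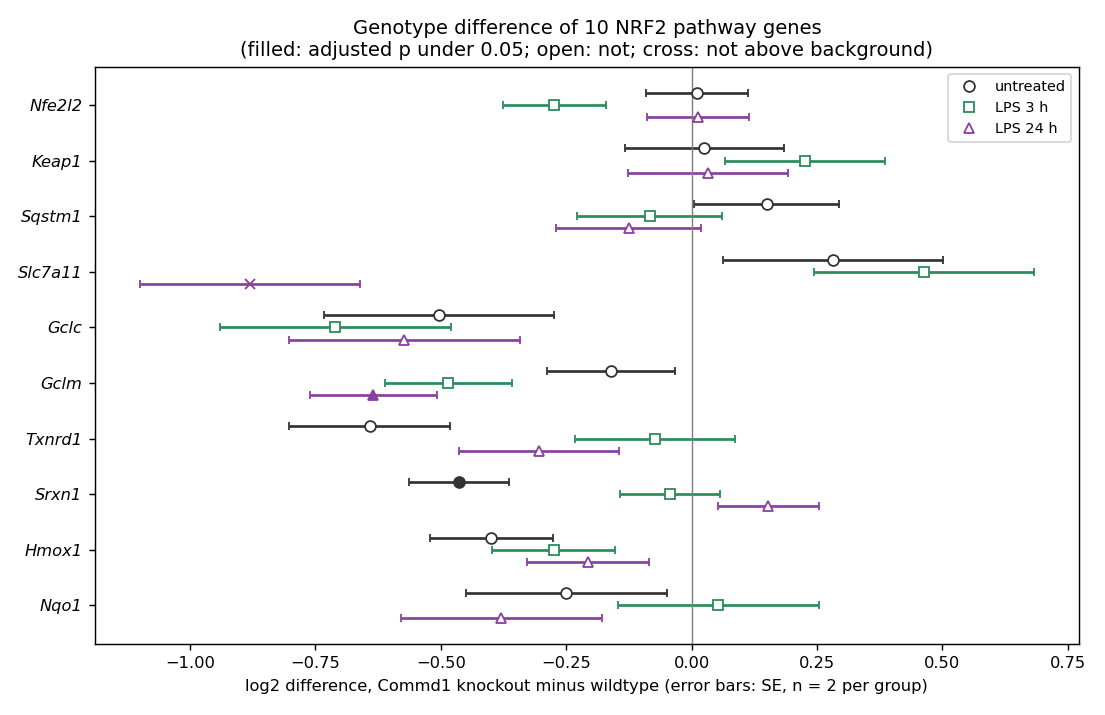
Log2 difference of Commd1 knockout minus wildtype (horizontal axis, with SE, n = 2 per group) for the 10 genes in untreated cells and after 3 h and 24 h of LPS; filled points have an adjusted p under 0.05, and the cross of Slc7a11 at 24 h rests on signals not well above background. The filled points are Srxn1 in untreated cells and Gclm at 24 h, and the values of Gclc, Gclm, Hmox1 and Txnrd1 lie below 0 at all 3 times.

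The 3 samples of a mouse are not independent, so the genotypes were also compared over 4 mouse means. No member passed in limma (0% of all genes did), and 4 of the 10 had an unadjusted p under 0.05, against 24% of all genes. The difference was negative for 9 of the 10, Keap1 being the exception, and for 45.7% of all genes. It was small for Sqstm1 (-0.02 ± 0.07), Nfe2l2 (-0.08 ± 0.06) and Slc7a11 (-0.05 ± 0.11). The Slc7a11 means include 24 h signals not well above background, and Slc7a11 was higher in knockout cells untreated (0.28) and at 3 h (0.46). The 4 with an unadjusted p under 0.05 were Gclc at -0.60 ± 0.16 (adjusted p = 0.148), Gclm at -0.43 ± 0.10 (adjusted p = 0.14), Txnrd1 at -0.34 ± 0.08 (adjusted p = 0.139) and Hmox1 at -0.29 ± 0.10 (adjusted p = 0.198). Without mouse 4, Gclc was at -0.78. For comparison, Commd1 itself had an adjusted p of 0.132 in limma over the 4 mouse means.

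Whether the LPS response differed between the genotypes was tested as an interaction. None of the 10 passed in limma at 3 h (0.0348% of all genes did) or at 24 h (0.357%). An unadjusted p under 0.05 was found for 2 members at 3 h, Srxn1 and Txnrd1, against 12.4% of all genes, and for 3 at 24 h, against 14.6%. The 3 were Srxn1, Gclm and Slc7a11, whose 24 h signals were not well above background on any array. The difference of the Srxn1 responses, knockout minus wildtype, was 0.42 ± 0.14 at 3 h (adjusted p = 0.277) and 0.62 ± 0.14 at 24 h (adjusted p = 0.109). Txnrd1 differed by 0.57 ± 0.23 at 3 h (adjusted p = 0.354) and Gclm by -0.47 ± 0.18 at 24 h (adjusted p = 0.281). Without mouse 3 at 24 h, the Srxn1 value at 24 h was 0.74. The per-mouse changes of Srxn1 at 24 h were 0.08 and 0.18 in wildtype, against 0.67 and 0.83 in knockout mice.

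The other genes of the pathway were taken from 7 lists of 92 genes, of which 89 were measured. In wildtype cells 21 rose and 26 fell after 3 h, with a median of -0.08 (52.8% called, against 46.5% of all genes), and 28 rose and 33 fell after 24 h, with a median of -0.05 (68.5% called, against 49.9% of all genes). The 3 h count of 47 was 31 without the untreated sample of mouse 1. Counts of the single lists below stand against the same 46.5% and 49.9%. The lists were chosen with earlier results of these data known, so these shares are not an independent comparison with all genes. The regulators list, NRF2's partners, competitors and degradation machinery, had 5 higher and 1 lower of 12 after 3 h (50% called). Maff, a small MAF protein that pairs with NRF2 or with BACH1, went from -2.26 and -2.13 to 2.36 and 2.34, a rise of 4.54 ± 0.17 (limma, adjusted p = 2.96e-07). At 24 h Maff stood at -1.89 and -1.72. Mafk rose by 1.80 ± 0.18 at 3 h, and Btrc, a ubiquitin ligase subunit that can also target NRF2, fell by 1.82 ± 0.21 at 3 h and 1.44 ± 0.21 at 24 h. The Btrc values were -0.85 and -0.57 when its probes were averaged. At 24 h 5 regulators were higher and 2 lower (58.3%), with Nfe2l1, a relative of NRF2, at 0.91 ± 0.16. Bach2, a repressor of the same elements, was 4.28-fold lower at 24 h. Its 24 h signals were not well above background, and with normexp it was 1.34-fold lower (-0.43 on the log2 scale).

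Of 18 genes of glutathione and cystine handling 4 rose and 3 fell at 3 h, and 4 rose and 6 fell at 24 h (38.9% and 55.6% called, near the shares over all genes). Glrx (glutaredoxin) rose by 1.11 ± 0.14 at 3 h and by 3.90 ± 0.14 at 24 h (limma, adjusted p = 3.01e-07), and Ggct, which breaks down gamma-glutamyl peptides, by 1.83 ± 0.13 at 3 h. Ggt5 was lower at 3 h (adjusted p = 0.0264) with signals not well above background there, and no longer passed with normexp (-0.21, adjusted p = 0.377). At 24 h Gpx3 fell by 2.23 ± 0.18 and Mgst2 by 1.34 ± 0.10. In the thioredoxin and peroxiredoxin list 3 of 11 rose and 2 fell at 3 h, and 4 rose and 3 fell at 24 h (45.5% and 63.6%). Prdx5, a peroxiredoxin, rose by 1.08 ± 0.12 and 2.24 ± 0.12, and Txn1 by 0.85 ± 0.17 at 3 h. Txnip, an inhibitor of thioredoxin, fell by 1.68 ± 0.19 and 1.70 ± 0.19, and Txnrd3 by 1.10 ± 0.11 at 24 h. NADPH supply, which feeds both branches, had 0 higher and 1 lower of 7 at 3 h and 1 higher and 5 lower at 24 h (14.3% and 85.7%). Idh1 fell by 0.75 ± 0.16 and 1.55 ± 0.16, and at 24 h Tkt fell by 0.59 ± 0.14 and Pgls by 0.54 ± 0.10.

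Around Hmox1, 2 of 10 genes of heme and iron handling rose and 6 fell at 3 h, and 4 rose and 3 fell at 24 h (80% and 70% called, against 46.5% and 49.9% of all genes). Of the erythroid markers reported here, Hba-a1 and Epor were detected in every group, and Klf1 and Alas2 in none. In wildtype cells Epor, the erythropoietin receptor gene, went from -1.15 and -1.58 untreated to -3.89 and -3.94 at 3 h and -3.48 and -3.70 at 24 h. Hba-a1, a globin gene, went from -4.72 and -4.78 to -4.45 and -4.36 and then -4.34 and -4.45. The part of erythroid cells in the heme and iron counts was not tested. Slc40a1 (ferroportin, the iron exporter) fell by 3.16 ± 0.18 at 3 h and 2.48 ± 0.18 at 24 h (limma, adjusted p = 2.46e-06 and 1.31e-05). Flvcr1, a heme exporter, fell by 0.74 ± 0.11 and Fech by 0.52 ± 0.09 at 3 h, and Hebp1 by 0.53 ± 0.09 at 24 h. Hmox2, the second heme oxygenase, rose by 1.31 ± 0.08 at 24 h. Of 19 detoxification genes and other NRF2 targets 4 rose and 6 fell at 3 h, and 6 rose and 9 fell at 24 h (52.6% and 78.9%). Osgin1 fell by 3.71 ± 0.15 and Trim16 by 2.72 ± 0.16 at 3 h, and Procr rose by 2.42 ± 0.22. At 24 h the scavenger receptor gene Marco rose by 5.89 ± 0.24 and Procr by 2.25 ± 0.22, while Ephx1 (epoxide hydrolase) fell by 3.06 ± 0.18, or by 2.27 with its probes averaged. Of 12 autophagy genes related to Sqstm1 3 rose and 7 fell at 3 h, and 4 rose and 5 fell at 24 h (83.3% and 75%). Nbr1, a receptor related to p62, fell by 1.92 ± 0.18, Atg7 by 0.69 ± 0.09 and Optn rose by 0.69 ± 0.19 at 3 h, and at 24 h Calcoco1 fell by 1.42 ± 0.09, Gabarapl1 by 1.07 ± 0.11 and Map1lc3b by 0.97 ± 0.09.

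**Figure D4:**
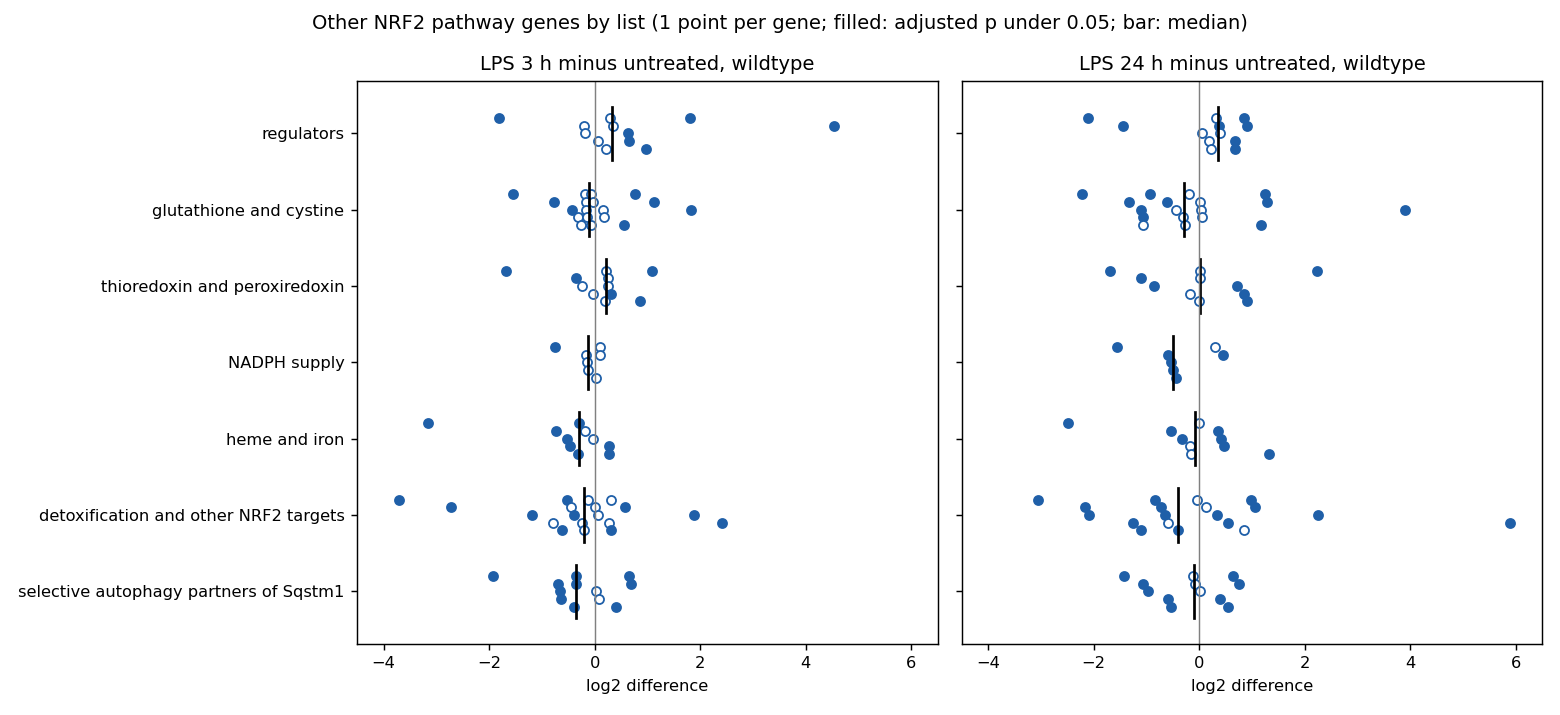
Log2 difference from untreated wildtype cells (horizontal axis) after 3 h (left) and 24 h (right) of LPS for 89 other pathway genes in 7 lists, with 1 point per gene, filled where the adjusted p is under 0.05, and a bar at each list's median. Every list holds genes on both sides of 0, with Maff at 4.54 at 3 h and Marco at 5.89 at 24 h farthest to the right.

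Between the genotypes 6 of the 89 differed in untreated cells, 3 in each direction, none passed at 3 h and 3 were lower in knockout cells at 24 h. These shares, 6.74% and 3.37%, stand against 6.74% and 2.39% of all genes, so they are at or near the background. The levels of Marco at 24 h were 5.59 and 5.75 in wildtype, against 3.35 and 3.85 in knockout cells, a difference of -2.07 ± 0.24 (limma, adjusted p = 0.0124). Abcc1, an exporter of glutathione conjugates, was at -0.74 ± 0.09 (adjusted p = 0.0151) and Slc48a1, a heme transporter, at -0.60 ± 0.12 (adjusted p = 0.0438). In untreated cells Cd36 (-1.45 ± 0.33), Chac1 (-1.25 ± 0.25) and Gpx1 (-0.38 ± 0.09) were lower in knockout, and Osgin1 (0.61 ± 0.15), Calcoco1 (0.40 ± 0.09) and Map1lc3b (0.35 ± 0.09) higher. Their adjusted p lay between 0.029 and 0.0475. Leaving out 1 sample, which leaves 1 sample in a group, changed these counts at each time.

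The genes whose course over the 12 arrays was most like that of 3 members were sought among 17779 genes detected on every array. The arrays fall into 3 LPS times, so these values of Pearson's r mainly describe the course over time and carry no test. Nearest to Nfe2l2 were 4933431K14Rik and Ate1 (r = 0.98 for both) and a transcript without a gene symbol (0.97). Nearest to Hmox1 were Odf2, Fgfbp3 and Gm8826 (r = 0.99 for each). Slc7a11 itself was not detected at 24 h, and nearest to it were Rps6ka4 and Sh3bgrl2 (r of 0.996 for both) and Mob3b (0.994). Sh3bgrl2 stood at 1.57 and 1.44 in untreated wildtype cells, 4.24 and 4.15 at 3 h and 1.26 and 1.13 at 24 h.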

How the data were processed

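Total RNA of 12 samples was labelled with Cy3 and hybridised to 12 one-colour Agilent arrays, without pooling. Per the file headers, the authors' scanner files give a processed intensity for each spot, with background subtracted within the array and no scaling between arrays, made with Agilent Feature Extraction 10.7.3.1 (per the submitters' processing notes). A deposited table of log2 values served as an alternative. For probes well above background, at least 99.5% of its values per array differ from that array's log2 processed signal by 1 fixed number (tolerance 0.01). Its column medians run from -4.50 to -4.30.

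Control spots and outlier spots (132 to 214 per array, 589 for knockout mouse 3 at 24 h) were left out, spots of a probe averaged, and log2 processed intensity reduced by the array's 75th percentile. No spot was saturated, and 60.1% to 73.0% were well above background. Probes were named through RefSeq by accession (26412 of 39429), symbol (3854) or synonym (735), and 8428 kept the file's name. A probe was kept if both arrays of any group showed it well above background (28446), and the brightest stood for its gene (22997 genes). Where a gene was below background in 1 group, the fold is a bound. Probe positions are those of the files (mm9). No annotation of that build was used, so exon or UTR is not given.

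All arrays were fitted in limma 3.58.1 (R 4.3.3, statmod 1.5.0, Python 3.11.15) with a mean per group, with 6 residual degrees of freedom, two-sided, and Benjamini-Hochberg adjustment over all genes at 0.05. "Rose", "fell" and "called" mean past this threshold. Values after ± are standard errors. The number of arrays limits the precision. Replicates are separate mice, and arrays of a mouse counted as independent except over mouse means. The mouse numbers come from the labels and pair the 3 samples of a mouse, whose residuals correlated at 0.12 to 0.35. The fits were tested on simulated data.

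Named genes were the 10 members, the 3 largest called changes of each list per LPS time in wildtype, up to 5 called genes per list in each genotype comparison, and the 3 genes most like Nfe2l2, Hmox1 and Slc7a11. Members and lists were chosen with earlier results of these data known. The result of 1 marker, and with it the sum of its list, is not reported here.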

Additional observations from a re-analysis of the deposited data

Results flagged for a closer look

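Abcc1 was the 1 gene of the members and the other pathway genes whose response to LPS differed between the genotypes by the interaction test. At 24 h this is 1.12% of the 89 other pathway genes, against 0.357% of all genes, so a single call carries little weight. From untreated to 24 h Abcc1 went from 1.94 and 2.04 to 0.99 and 1.12 in wildtype and from 2.10 and 2.13 to 0.31 and 0.33 in knockout cells. The knockout change was larger by -0.87 (limma, adjusted p = 0.0478). The count of such genes was 0 in 7 of the 8 fits that left out 1 sample. Groups of 2 are too small for a check of single outlying samples.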

How the results depend on the processing

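Over all comparisons 45 member values passed the threshold, and 39 of them kept their direction and passed in every alternative. The 6 others were Gclm and Srxn1 between genotypes, Keap1 (wildtype) and Nfe2l2 (knockout) from 3 h to 24 h, and Sqstm1 and Slc7a11 at 24 h in knockout cells. After correction for the spike-in slope, Nfe2l2 from 3 h to 24 h in wildtype was -0.36 (limma, adjusted p = 0.032) in place of 0.02, and Srxn1 at 24 h in wildtype -0.35 (adjusted p = 0.0358) in place of 0.13. With normexp, Slc7a11 at 24 h in knockout was 0.28 (adjusted p = 0.114), its 24 h signals being not well above background. The cause was not tested. The slope is lower on wildtype than on knockout arrays of the same slide, and in both genotypes it is higher at 24 h than at the other times. That correction is therefore confounded with genotype and with LPS time and slide.

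Counts of members between genotypes, 1 in untreated cells, were 2 with normexp, the percentile over detected probes, quantile normalization, the filter on all arrays, outlier spots kept or the deposited table, 4 with the slope, and 0 with no filter or only the groups compared. Over all 22995 genes the slope gave 4154 higher and 2234 lower untreated, in place of 858 and 692. Normexp gave 1469 and 1099 there. The filter on all arrays gave 1280 and 969 of 17978 genes, and no filter 251 and 202 of 31691. The background thus moved with the setting too. At 3 h (0 in limma, 3 unadjusted) the count was 1 with normexp or the filter on all arrays and 3 with the slope. Over all genes at 3 h, normexp gave 1200 and 533 and the slope 3582 and 1713, in place of 243 and 138. The filter on all arrays gave 898 and 581 of 17980. At 24 h (1) it was 0 with quantile normalization, the slope, no filter or only the groups compared. Over all genes at 24 h, quantile normalization gave 145 higher and 242 lower and the slope 69 and 66, in place of 166 and 384. No filter gave 32 and 71. Leaving out 1 sample changed the counts at each time, for the 24 h interaction and over mouse means. Such a fit leaves 1 sample in a group, so its counts are not given.

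For the other pathway genes, the untreated count of 6 was 14 with normexp, 10 with quantile normalization, 27 with the slope, 11 with the filter on all arrays or the deposited table, and 0 with no filter or only the groups compared. At 3 h the count of 0 was 14 with normexp, 2 with the detected percentile, 33 with the slope, 13 with the filter on all arrays, 1 with probes averaged, 5 with the deposited table and 1 with the replicate block. The counts over all genes with the slope, normexp, the filter on all arrays and no filter are given above. Those of the deposited table were 1041 higher and 917 lower untreated and 499 and 307 at 3 h. Quantile normalization gave 949 and 857 untreated. At 24 h the 3 were 5 with normexp, the detected percentile or the filter on all arrays, and 0 with only the groups compared. Over all genes at 24 h, normexp gave 319 and 339, the detected percentile 199 and 730 and the filter on all arrays 337 and 608. The 3 h interaction (0) gave 1 with normexp or the filter on all arrays. The 24 h interaction (1) gave 3 with either of these, 2 with the replicate block, and 0 with the slope, no filter, outlier spots kept or only the groups compared. Leaving out 1 sample gave 31 to 40 for wildtype 3 h (47), 0 to 3, 0 to 13 and 0 to 6 for the genotypes untreated, at 3 h and at 24 h, 0 to 3 and 0 to 1 for the interactions and 0 to 4 over mouse means.

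The replicate block by mouse (consensus correlation 0.101) changed 3 member calls: in wildtype at 3 h Gclm (-0.32, adjusted p = 0.0223) and Nqo1 (-0.49, adjusted p = 0.0128) passed, and in knockout from 3 h to 24 h Nfe2l2 (adjusted p = 0.0526) did not. Over all genes, the genotype counts of 1550, 381 and 550 (untreated, 3 h, 24 h) ranged from 0 to 6388, 0 to 5295 and 0 to 945 over the alternatives, the interaction counts of 8 and 82 from 0 to 372 and 0 to 246, and the mouse means from 0 to 1454, the LPS counts staying within 1.5 times. These LPS counts take both directions together, and single directions moved further. With normexp, 9362 genes were higher and 5147 lower in wildtype at 24 h, in place of 5424 and 6062. In knockout cells at 24 h these were 10326 and 5637, in place of 5981 and 7247. Normexp shifted the median of all genes by up to 0.29 and the slope by up to 0.21.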
